A study of Homo sapiens with 22 samples.

Results

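The interferon-stimulated genes described here are 43 genes chosen by symbol, of 35237 rows in a table of raw read counts. They comprise the regulators of the interferon response, the sensors of foreign nucleic acid and the antiviral effectors. The rule that chose them uses no measured value, but earlier results of these data were known when they were chosen. RNA was sequenced in 22 libraries, of which 16 came from SK-N-AS and 6 from GIMEN. Both are established cell lines of human neuroblastoma, and the labels call both mesenchymal. Neuroblastoma is a childhood tumour of the sympathetic nervous lineage. Untreated SK-N-AS cells grew in DMEM with 10% fetal bovine serum (n = 4). The group S1D4 received 5 µM PP121, an inhibitor of tyrosine kinases and phosphoinositide kinases, in 1% serum for 4 days (n = 4). The groups S2D4 and S2D30 began as S1D4 cells and then received 5 µM PP121 with 100 nM bufalin, a cardiac glycoside that blocks the sodium pump, in serum-free Neurobasal medium with B27 for 4 or 30 days (n = 4 each). Untreated GIMEN cells grew in RPMI with 10% serum (n = 3), and GIMEN D30 cells received 2.5 µM PP121 and 10 nM bufalin in RPMI with 1% serum for 30 days (n = 3). Drug, serum and, in stage 2, medium changed together, and no vehicle-treated group enters the comparisons, so the effects of the drugs, serum and medium cannot be told apart.

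Type I interferons bind a receptor of the subunits IFNAR1 and IFNAR2 and activate the kinases JAK1 and TYK2. Signalling leads to the factor ISGF3, in which STAT2 joins IRF9. ISGF3 binds the interferon-stimulated response element (ISRE) in the promoters of the target genes, while targets of interferon gamma carry the gamma-activated site (GAS). Many of the targets are also transcribed at a basal level in tumour cells, and STAT2, IRF9 and several sensors are themselves both parts and targets of the pathway.

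The total count per library was 16456484 to 37506800, and 3 counts, the level below which a gene was treated as not detected, correspond to 0.0792 to 0.193 CPM, the counts-per-million scale of all levels given here. The labels do not say whether replicates were separate cultures, so p-values measure only the spread between these libraries, which may be technical. Replicate 4 of S2D4 stood apart, with a correlation of 0.9673 to 0.969 with the other libraries of its group, and the member results whose call or size turned on it are given with and without it. Of 10 adrenergic markers, 4 were at or below 3 counts in every untreated GIMEN library, among them PHOX2A, HAND1 and TH. Others were present there, such as HAND2 at 362 to 375 CPM. Untreated SK-N-AS cells had PHOX2A, an adrenergic factor, at a mean of 149 CPM, but TH was low there too, at a mean of 0.269 CPM. FN1, the mesenchymal matrix gene fibronectin, was at a mean of 60.9 CPM in untreated SK-N-AS and 32100 CPM in untreated GIMEN. Of the 10 mesenchymal markers, 8 were lower in untreated SK-N-AS than in untreated GIMEN and 2 were higher, TWIST1 (means of 110 against 75.6 CPM) and NOTCH2 (5.69 against 0.0169 CPM), and all 9 adrenergic markers tested were higher. Untreated SK-N-AS cells thus held adrenergic markers that the shared mesenchymal label does not name. Leukocytes also express these genes, and of 10 leukocyte markers CD3E had no count in any SK-N-AS library, whereas PTPRC fell from a mean of 179 CPM in untreated SK-N-AS to 0.832 CPM in S2D30. The other leukocyte markers tested, CD68, CSF1R and CD14, rose in S2D30, from means of 13.5, 0.262 and 1.36 to 121, 1.65 and 3.03 CPM (3.18, 2.59 and 1.18 on the log2 scale, adjusted p 9.01e-09, 5.47e-06 and 0.00546). The sum of the 10 leukocyte markers ranged between 174 and 213 CPM over the untreated SK-N-AS libraries, between 77.7 and 97.6 over S1D4, between 102 and 157 over S2D4 and between 99.9 and 150 over S2D30. In GIMEN it ranged between 99.6 and 116 CPM untreated and between 180 and 417 CPM in D30, of which CD68, a lysosomal gene, made up most in GIMEN D30 (mean of 292 CPM). MS4A1 was at or below 3 counts in every library of all 6 groups. The part of such cells in the results below was not tested. In cultured lines as in any bulk sample, fewer cells with a transcript and less transcript per cell cannot be told apart.

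Promoter sequences were taken from RefSeq on GRCh38.p14, as windows of 300 bases that run from 250 bases before to 50 bases after the start of transcription. Of the 43 members, 34 had a window, and the first listed was read where a gene had several. Both strands were searched for the core of the ISRE (GAAA, any 2 bases, GAAA) and for the GAS (TTC, any 3 bases, GAA), and matches were allowed to overlap. The ISRE core was in 22 of the 34 windows, against 3.57% of 35116 windows of all genes, and the GAS letters were in 10, against 7.66%. A window held both in 6 members. The 60-base stretches shown here belong to members whose changes the results turn on, printed 5′ to 3′ on the strand of the gene with the ISRE core in capitals. Where the core lies on the opposite strand, the capitals read TTTC, 2 bases, TTTC. The first 5 members fell in each treated SK-N-AS group and in GIMEN D30.
IFI44L, chr1:78620350-78620409, plus strand: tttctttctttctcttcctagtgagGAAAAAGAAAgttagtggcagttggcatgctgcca
IFI44, chr1:78649729-78649788, plus strand: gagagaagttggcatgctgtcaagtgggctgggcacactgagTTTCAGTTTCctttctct
IFIT1, chr10:89392495-89392554, plus strand: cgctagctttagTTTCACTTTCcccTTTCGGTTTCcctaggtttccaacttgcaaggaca
OAS3, chr12:112938414-112938473, plus strand: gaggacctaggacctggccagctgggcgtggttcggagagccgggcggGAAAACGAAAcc
PLSCR1, chr3:146544652-146544711, minus strand: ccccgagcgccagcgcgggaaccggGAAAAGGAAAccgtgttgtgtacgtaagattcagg
The next stretches belong to ISG20, which rose in each treated group of both lines, to IFI6, which rose in stage 2 of SK-N-AS, to DDX60 and BST2, whose 30-day changes differed between the lines, and to IFIT5, which was called in none of the comparisons with untreated cells of the same line.
ISG20, chr15:88638922-88638981, plus strand: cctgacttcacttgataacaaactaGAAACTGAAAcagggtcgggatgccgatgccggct
IFI6, chr1:27672251-27672310, minus strand: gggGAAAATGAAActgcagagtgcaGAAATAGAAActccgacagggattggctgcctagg
DDX60, chr4:168318771-168318830, minus strand: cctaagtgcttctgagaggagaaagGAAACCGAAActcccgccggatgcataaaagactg
BST2, chr19:17405720-17405779, minus strand: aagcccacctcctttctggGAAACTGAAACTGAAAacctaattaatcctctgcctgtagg
IFIT5, chr10:89414508-89414567, plus strand: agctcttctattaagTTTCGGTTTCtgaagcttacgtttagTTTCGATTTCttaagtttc
A stretch could be printed only for a member with the core, so the stretches do not show how the core relates to the direction of change. STAT2, DDX58, IFI16, HERC6, PARP9, RSAD2, SAMD9L and XAF1 had a window without either motif, which says only that these letters are not in it. A match is a description of the letters, and binding was not measured.

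Changes were tested with edgeR's quasi-likelihood test, with p-values adjusted by Benjamini and Hochberg over all genes tested, and a gene is called where the adjusted p is under 0.05. In S1D4, 5 members were higher and 11 lower than in untreated SK-N-AS cells, of 42 tested. Over all 15810 genes, 17.6% were higher and 22.4% lower, so that 38.1% of the members were called against 40.1% of all genes. In S2D4, 9 members were higher and 16 lower (59.5% called), against 30.9% and 32.2% of all genes (63.1% called). In S2D30, 11 members were higher and 18 lower (69% called), against 33.8% and 36.5% of all genes (70.3% called). The share of members called was thus near that of all genes in each of the 3 comparisons, which share the untreated libraries. The median log2 change of the tested members was -0.12 in S1D4, -0.26 in S2D4 and -0.40 in S2D30, against -0.01, -0.02 and -0.03 over all genes. It was -0.06 in S1D4 and -0.23 in S2D30 without untreated replicate 1. Markers of cell state moved beside these changes. The summed level of 10 adrenergic markers was 1660 to 1950 CPM in the untreated SK-N-AS libraries, 1360 to 1640 in S1D4, 594 to 904 in S2D4 and 210 to 257 in S2D30, and that of 10 mesenchymal markers 957 to 1600, 1350 to 1560, 2600 to 4950 and 3290 to 3950 CPM. In S2D30, 9 adrenergic markers were lower, and 8 mesenchymal markers were higher and 2, FN1 and TWIST1, lower. VIM made up most of the mesenchymal sum in SK-N-AS, at 2470 to 3080 CPM in S2D30. In GIMEN both sums were lower after treatment. The adrenergic sum was 465 to 480 CPM untreated and 247 to 295 CPM in D30, most of it from HAND2 (362 to 375 CPM untreated). The mesenchymal sum was 39100 to 40200 and 20900 to 24100 CPM, most of it from FN1 (31200 to 32800 CPM untreated). Of 5 adrenergic markers tested in GIMEN, 1 was higher and 2 lower. Of 9 mesenchymal markers tested there, 2 were higher and 6 lower. The part of the cell state in the members' changes was not tested. OASL, the untested member, had at most 0.449 CPM in any library.

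Across the 3 treated SK-N-AS groups, STAT2, MX2 and ISG20 were higher in each. OAS1, OAS3, IFIT1, GBP1, USP18, PARP9, PLSCR1, IFI44 and IFI44L were lower in each. GBP2 was higher in S1D4 and lower in S2D4 and S2D30. IRF9, DDX58, OAS2, IFIT3, IFIT5, IFITM1, MX1, PARP14 and XAF1 were called in none of the 3, although DDX58, IFITM1, IRF9, MX1 and PARP14 were called in 1 or more of them when a single library was left out. In GIMEN D30, 13 members were higher and 13 lower than in untreated GIMEN, of 38 tested (68.4% called), against 35.5% and 36% of 13517 genes (71.4% called), with a median of 0.10 against 0.02. The GIMEN median was 0.05 without untreated GIMEN replicate 3, and 0.06 and 0.00 without GIMEN D30 replicates 2 and 3.

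**Figure D1:**
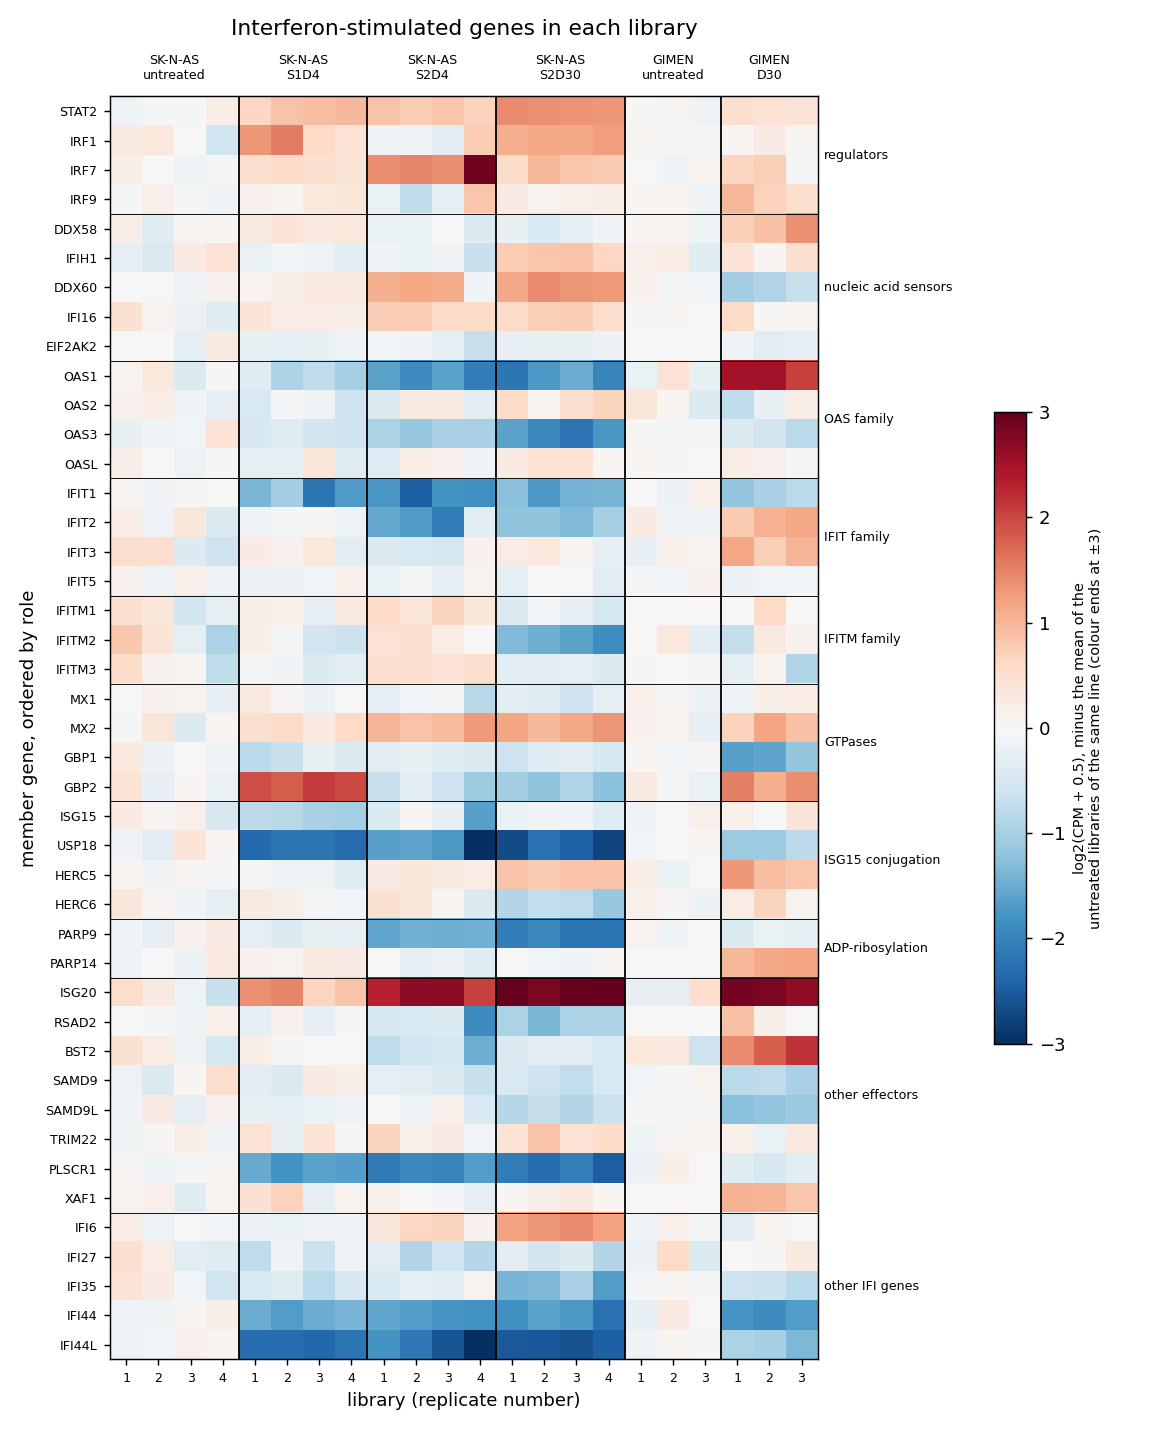
Each cell is 1 member (rows, ordered by role) in 1 of the 22 libraries (columns, by group and replicate number). Colour is log2(CPM + 0.5) minus the mean of the untreated libraries of the same line, red for higher and blue for lower, with the colours ending at 3 in either direction. IFI44, IFI44L, USP18 and PLSCR1 are blue in the treated SK-N-AS groups, ISG20 is red in each treated group, and OAS1 is blue in SK-N-AS stage 2 and red in GIMEN D30. Replicate 4 of S2D4 is darker than its group at IRF7, USP18 and IFI44L.

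The ligands were at the limit of detection. Of 21 interferon genes listed, 13 had no count in any library and 20 had at most 3 counts in every library, and the largest count was 4, for IFNW1. At 3 counts or fewer, a difference in ligand transcript between the groups was not detectable at this depth. Among the receptors, IFNAR1, the signalling subunit of the type I receptor, rose from a mean of 34.8 CPM in untreated SK-N-AS to 48.5, 51.5 and 79.9 CPM in S1D4, S2D4 and S2D30 (log2 change of 1.22, SE 0.09, adjusted p 4.05e-09 in S2D30), and from 51.9 to 107 CPM in GIMEN D30 (1.04, SE 0.07, adjusted p 1.04e-07). IFNAR2, its partner, was not called in these 4 comparisons, with changes of -0.10, 0.01, 0.17 and 0.14. Its S2D30 value was called without untreated SK-N-AS replicate 4 (0.23, adjusted p 0.0499). IFNGR1, the ligand-binding subunit of the interferon gamma receptor, rose by 1.39 in S2D30 (adjusted p 4.62e-09) and by 1.39 in GIMEN D30 (adjusted p 2.84e-07). IFNLR1, the specific subunit of the interferon lambda receptor, was at a mean of 1.69 CPM in untreated SK-N-AS, 0.332 in S2D4 and 2.17 in S2D30, lower in S2D4 only (log2 change of -2.33, SE 0.41, adjusted p 8.98e-05), and it had no count in GIMEN.

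Of the kinases, JAK2, which acts at the interferon gamma receptor, rose from a mean of 2.91 to 6.91 CPM in S2D4 (1.23, adjusted p 0.000621) and 6.27 CPM in S2D30, and from 15.6 to 27 CPM in GIMEN D30. AIM2, a sensor of cytosolic DNA, rose from a mean of 0.245 CPM to 3.56, 2.91 and 5.05 CPM in S1D4, S2D4 and S2D30 (4.28 in S2D30, SE 0.52). SOCS1, an inhibitor of the JAK kinases, was higher in S1D4 (1.31, adjusted p 0.0179), a call that was lost without untreated SK-N-AS replicate 3 or S1D4 replicate 2 (1.16 to 1.22, adjusted p 0.0526 to 0.0531). It was lower in S2D30, at means of 2.79 CPM in untreated SK-N-AS, 6.93 in S1D4 and 0.671 CPM in S2D30 (-2.03, adjusted p 0.000996), and at 9.41 and 0.978 CPM in untreated and treated GIMEN (-3.26, adjusted p 9.12e-08). Its S2D4 value (-0.69, adjusted p 0.169) was called lower without S2D4 replicate 4 (-1.51, adjusted p 0.000838). SAMHD1, an enzyme that depletes deoxynucleotides, fell from a mean of 26.2 to 6.23 CPM in S2D30 (-2.06, adjusted p 1.31e-06). It also fell from 41.3 to 31.9 CPM in GIMEN D30 (-0.38, adjusted p 0.000428). Of the 53 listed pathway genes that are no members, 13 were higher and 2 lower in S1D4, 12 and 4 in S2D4 and 15 and 6 in S2D30, of 31 tested, and 11 and 7 in GIMEN D30, of 28 tested. The shares called were 48.4%, 51.6%, 67.7% and 64.3%, against 40.1%, 63.1%, 70.3% and 71.4% of all genes. Their median changes were 0.17, 0.09, 0.26 and 0.13, against -0.01, -0.02, -0.03 and 0.02 over all genes.

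**Figure D2:**
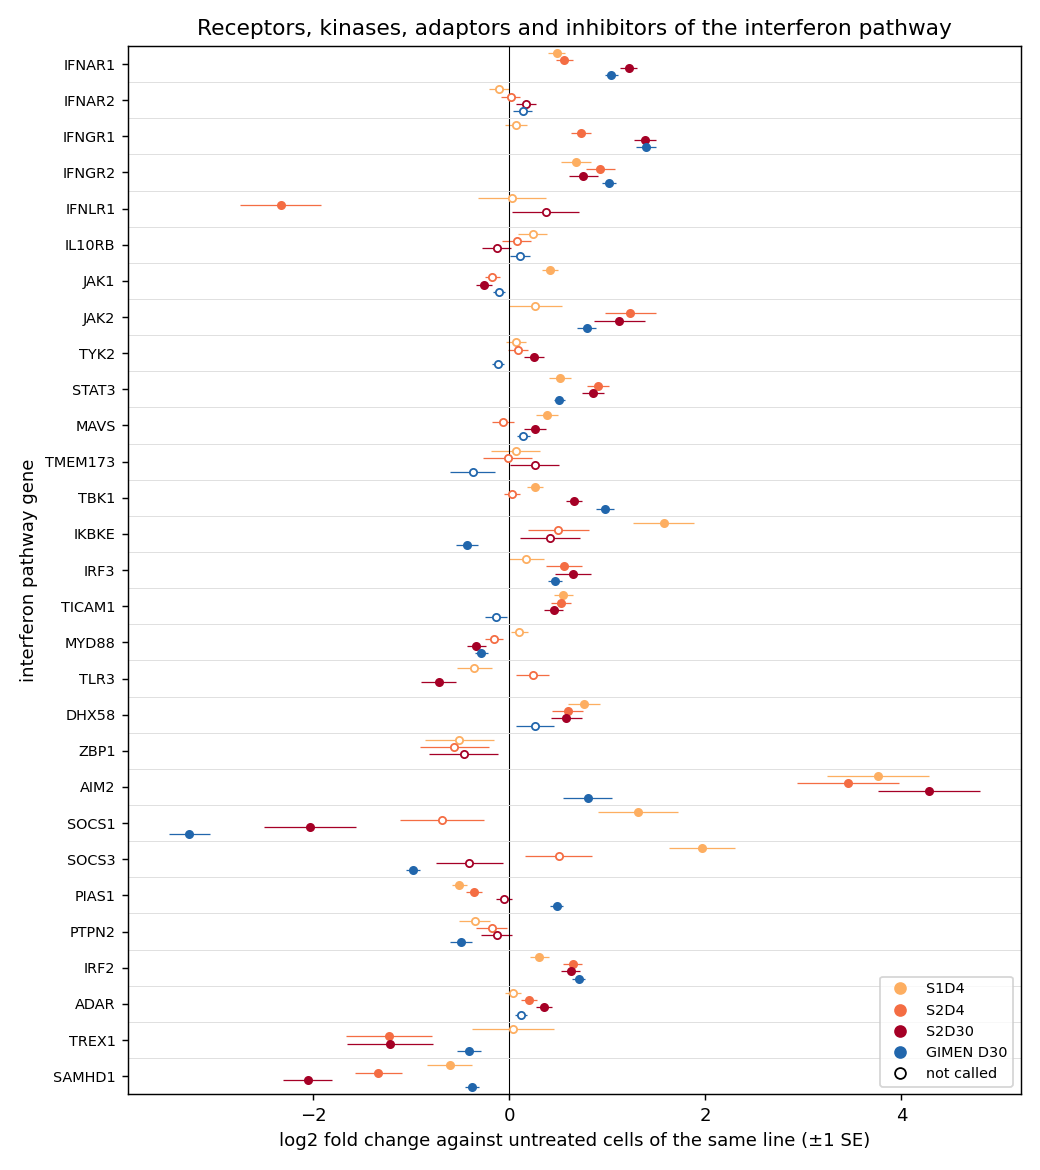
Log2 fold change against untreated cells of the same line (horizontal axis, bars of 1 SE) for the tested receptor, kinase, adaptor and inhibitor genes shown (rows). Filled points are called and open points are not, in S1D4, S2D4, S2D30 (n = 4 each) and GIMEN D30 (n = 3). IFNAR1 and IFNGR1 lie to the right in S2D30 and GIMEN D30, and SOCS1 lies to the left in both.

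Of the 4 regulators, 2 were higher in S1D4, 2 in S2D4, 3 in S2D30 and 2 in GIMEN D30, and none was called lower, where 17.6%, 30.9%, 33.8% and 35.5% of all genes were called higher. STAT2, the ISGF3 subunit that carries the activation domain, was at 42.6, 45, 45.5 and 53.3 CPM in untreated SK-N-AS cells and 71.3, 84.5, 88.2 and 91.9 in S1D4. Levels were 84.4, 79.5, 82.7 and 74 in S2D4 and 124, 120, 119 and 116 in S2D30. Each treated library lay above each untreated one, and the S2D30 libraries were the highest (log2 change of 0.85, SE 0.09, adjusted p 3.33e-06 in S1D4, 0.78, SE 0.09, adjusted p 1.92e-06 in S2D4 and 1.37, SE 0.09, adjusted p 1.26e-09 in S2D30). In GIMEN, STAT2 was at 69.5, 71 and 63.3 CPM untreated and 96.7, 92 and 89.3 CPM in D30, without overlap (0.44, SE 0.06, adjusted p 5.89e-05). The 30-day rise was larger in SK-N-AS (difference of 0.91, adjusted p 6e-06). IRF1, a factor induced by interferon gamma, was at 13, 13.3, 10.6 and 6.87 CPM in untreated SK-N-AS cells and 27.3, 31.6, 16.3 and 14.2 in S1D4. Levels were 9.71, 9.47, 8.48 and 18.2 in S2D4 and 23.3, 24.3, 23.9 and 25.9 in S2D30. It was high in S1D4 (1.04, SE 0.28, adjusted p 0.00684) and S2D30 (1.17, SE 0.28, adjusted p 0.00126), and its S2D4 libraries lay within the untreated range except replicate 4, at 18.2 CPM (0.08, adjusted p 0.825, and -0.25, adjusted p 0.412, without that library). In GIMEN, IRF1 was at 19.7, 18.1 and 17.6 CPM untreated and 19.3, 21.9 and 19.4 CPM in D30, which overlapped (0.13, adjusted p 0.244). Of the IRF1 transcript sequence, 22% lies opposite another gene and the strand used in counting is not given in the sources used here.

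IRF7, the factor that drives transcription of the interferon genes, was at 10.5, 9.31, 8.41 and 8.86 CPM in untreated SK-N-AS cells and 13.5, 14, 13.2 and 12.3 in S1D4. Levels were 24.9, 26.5, 25 and 72.5 in S2D4 and 13.7, 18.7, 16.9 and 16.2 in S2D30. The S2D4 libraries were the highest and replicate 4 was far above the other 3. The S2D4 change was 2.01 (SE 0.28, adjusted p 9.37e-06) with that library and 1.45 (adjusted p 3.92e-09) without it, and the S2D30 change was 0.84 (adjusted p 0.0123). In GIMEN, IRF7 was at 0.937, 0.809 and 1.04 CPM untreated and 1.72, 1.84 and 0.9 CPM in D30 (0.68, adjusted p 0.102), and it was called without GIMEN D30 replicate 3 (0.93, adjusted p 0.0336). IRF9, the DNA-binding subunit of ISGF3, was at 20.3, 23, 20.3 and 19.2 CPM in untreated SK-N-AS cells and 22.5, 21.6, 26 and 26.5 in S1D4. Levels were 17.9, 12, 16.7 and 37.1 in S2D4 and 24.6, 22.2, 22.9 and 23.8 in S2D30. It was called in no treated SK-N-AS group, with changes of 0.23, 0.02 and 0.19, but S2D4 replicate 4 lay above and the other S2D4 libraries below the untreated range. Without that library the S2D4 change was -0.42 (adjusted p 0.00854), in the opposite direction. In GIMEN, IRF9 rose from 15.5, 15.5 and 13.9 to 30.3, 24.5 and 21.6 CPM (0.76, SE 0.12, adjusted p 0.000151). Of the IRF9 sequence, 40.9% of 75-base words are shared with an overlapping gene, so its counts are uncertain.

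Among the 5 nucleic acid sensors, none was called in S1D4, 2 were higher and 1 lower in S2D4, 3 were higher in S2D30, and 1 was higher and 2 lower in GIMEN D30, where 40.1%, 63.1%, 70.3% and 71.4% of all genes were called in either direction. DDX60, a helicase that assists the RNA sensors, was at 9.31, 9.27, 8.75 and 10.4 CPM in untreated SK-N-AS cells and 10.1, 10.7, 11.7 and 11.6 in S1D4. Levels were 20.2, 21.8, 21 and 8.65 in S2D4 and 21.4, 26, 24.2 and 23.4 in S2D30. Its S2D30 libraries were all above the untreated ones (1.34, SE 0.21, adjusted p 2.04e-05), as were those of S2D4 except replicate 4 (0.91, adjusted p 0.00104). In GIMEN it moved the other way, from 21, 18.4 and 17.8 to 9.05, 9.96 and 11.6 CPM, without overlap (-0.91, SE 0.12, adjusted p 4.34e-05). IFIH1, the RNA sensor MDA5, was at 7.39, 6.41, 10.6 and 12 CPM in untreated SK-N-AS, 8.14, 7.62, 8.11 and 5.35 in S2D4 and 15.4, 16.1, 16.5 and 13.8 in S2D30 (0.78, SE 0.18, adjusted p 0.00119 against untreated), so that only the 30-day libraries stood above. DDX58, the RNA sensor RIG-I, was not called in S1D4 (0.33, adjusted p 0.0606) and rose in GIMEN D30 from 6.3, 6.37 and 5.35 to 10.2, 11.5 and 16.2 CPM (1.06, SE 0.18, adjusted p 0.000297). Without untreated SK-N-AS replicate 2, DDX58 was called lower in S2D4 (-0.33, adjusted p 0.0404) and S2D30 (-0.38, adjusted p 0.0174), and IFIH1 in S2D4 (-0.45, adjusted p 0.044, and -0.32, adjusted p 0.138, with it). IFI16, a DNA sensor, rose in S2D4 and S2D30, by 0.63 and 0.63 (adjusted p 0.000391 and 0.000288). Its S1D4 value (0.23, adjusted p 0.163) was called without untreated SK-N-AS replicate 1 (0.40, adjusted p 0.0107), and its GIMEN value (0.25, adjusted p 0.0698) without GIMEN D30 replicates 2 or 3 (0.32 to 0.35, adjusted p 0.0219 to 0.0272). EIF2AK2, the RNA-activated kinase PKR, was at 63.4, 63.1, 51.8 and 75.5 CPM in untreated SK-N-AS and 144, 145 and 142 CPM in untreated GIMEN, and fell in GIMEN D30 to 129, 114 and 118 CPM (-0.26, adjusted p 0.0023). Its S2D4 call (-0.29, adjusted p 0.0466) was lost without untreated SK-N-AS replicates 1, 2 or 4 or S2D4 replicates 3 or 4 (-0.29 to -0.17, adjusted p 0.0772 to 0.213), and with DESeq2's test (adjusted p 0.054). It was also lost with a term that sets replicates 1 and 2 of untreated and S1D4 cells apart from replicates 3 and 4 (-0.27, adjusted p 0.0957). EIF2AK2 was not called in S2D30 (-0.21, adjusted p 0.127) but was without untreated SK-N-AS replicate 3 (-0.30, adjusted p 0.0362).

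The OAS enzymes make short oligoadenylates when they bind double-stranded RNA. OAS1 was at 2.32, 2.77, 1.46 and 2.19 CPM in untreated SK-N-AS cells and 1.56, 0.881, 1.05 and 0.799 in S1D4. Levels were 0.37, 0.218, 0.373 and 0.128 in S2D4 and 0.0862, 0.299, 0.443 and 0.171 in S2D30. In stage 2 each library was below each untreated one (-3.02, SE 0.42, adjusted p 9.35e-06 in S2D4 and -3.10, SE 0.43, adjusted p 5.3e-06 in S2D30), an 8.6-fold lower level in S2D30. OAS1 in S2D30 replicate 1 was below 3 counts, which are 0.129 CPM in that library, so this fold is imprecise. In GIMEN the same gene rose 8.01-fold without overlap, from 0.468, 1.01 and 0.46 to 5.86, 5.9 and 4.11 CPM (3.0, SE 0.32, adjusted p 6.04e-06). OAS3 was at 35.6, 38.2, 39.2 and 56.5 CPM in untreated SK-N-AS cells and 29.8, 32.1, 28.4 and 26.9 in S1D4. Levels were 21.5, 18.7, 21.1 and 21 in S2D4 and 13.3, 10.5, 8.63 and 12 in S2D30. The groups did not overlap, and each later one was lower (-1.92, SE 0.16, adjusted p 9.92e-09 in S2D30). In GIMEN, OAS3 was at 1.09, 1.01 and 1.09 CPM untreated and 0.651, 0.571 and 0.386 CPM in D30 (-0.98, adjusted p 0.0278). OAS2 was called in none of the 4 comparisons with untreated cells, at 0.0888 to 0.941 CPM in SK-N-AS, and OASL was not tested. The S1D4 call of OAS1 (-1.02, adjusted p 0.0325) was lost without untreated SK-N-AS replicates 1, 2 or 4 or S1D4 replicates 2, 3 or 4 (-1.01 to -0.87, adjusted p 0.0508 to 0.0944), the S1D4 change of OAS3 (-0.53) was smaller without untreated SK-N-AS replicate 4 (-0.34, adjusted p 0.0323), and the GIMEN call of OAS3 was lost without GIMEN D30 replicates 2 or 3 or untreated GIMEN replicates 1, 2 or 3 (-1.03 to -0.80, adjusted p 0.0583 to 0.102) and with DESeq2's test (adjusted p 0.093).

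The IFIT proteins bind viral RNA ends. IFIT1 was at 4.8, 4.2, 4.76 and 4.65 CPM in untreated SK-N-AS cells and 1.48, 1.99, 0.631 and 1.07 in S1D4. Levels were 1.02, 0.435, 0.979 and 0.929 in S2D4 and 1.64, 1.05, 1.42 and 1.45 in S2D30. In GIMEN, IFIT1 went from 3.49, 2.98 and 3.91 to 1.24, 1.52 and 1.74 CPM. None of the treated libraries of either line reached an untreated one (-1.83, SE 0.3, adjusted p 0.000154 in S1D4, -2.44, SE 0.31, adjusted p 3.89e-06 in S2D4, -1.71, SE 0.3, adjusted p 7.59e-05 in S2D30 and -1.21, SE 0.25, adjusted p 0.00106 in GIMEN D30). IFIT2 was at 4.35, 3.2, 4.76 and 2.58 CPM in untreated SK-N-AS cells and 3.32, 3.52, 3.75 and 3.24 in S1D4. Levels were 0.925, 0.762, 0.466 and 2.82 in S2D4 and 1.29, 1.3, 1.15 and 1.58 in S2D30. Both stage 2 groups were low except for S2D4 replicate 4. Its change was -1.53 in S2D4 (adjusted p 0.00244, and -2.37, adjusted p 9.06e-07, without replicate 4) and -1.46 in S2D30 (adjusted p 0.00296). In GIMEN D30, by contrast, IFIT2 rose from 2.19, 1.62 and 1.55 to 3.43, 4.19 and 4.56 CPM (1.17, SE 0.24, adjusted p 0.00104). IFIT3 was not called in SK-N-AS and rose in GIMEN D30 (1.08, SE 0.2, adjusted p 0.00056). Its S2D4 value (-0.42, adjusted p 0.21) was called with the term for replicates 1 and 2 against 3 and 4 (-0.67, adjusted p 0.0335). IFIT5 was at 14.4 to 20.2 CPM in the SK-N-AS libraries and 13.2 to 16.4 CPM in those of GIMEN, with changes of -0.07, -0.10, -0.12 and -0.13, none of them called (SE of 0.11 to 0.12).

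The IFITM proteins hinder entry of viruses at membranes, and their sequences overlap, with 23.9% to 29.8% of 75-base words of each shared with other genes. IFITM3 was at 192, 145, 138 and 77.9 CPM in untreated SK-N-AS cells and 129, 122, 97.2 and 105 in S1D4. Levels were 186, 189, 176 and 190 in S2D4 and 105, 104, 108 and 98.3 in S2D30. The untreated libraries span the range of the others. Its S2D4 call (0.43, adjusted p 0.0405) was lost without untreated SK-N-AS replicates 3 or 4 or S2D4 replicates 1, 2, 3 or 4 (0.25 to 0.45, adjusted p 0.0539 to 0.0695), and with upper-quartile scaling (adjusted p 0.0838). With the term for replicates 1 and 2 against 3 and 4, it was 0.22 (adjusted p 0.193). IFITM3 was not called in S1D4 or S2D30 (-0.28 and -0.39), but was lower in both without untreated SK-N-AS replicate 4 (-0.46, adjusted p 0.00253, and -0.57, adjusted p 0.000175) and in S2D30 with that term (-0.59, adjusted p 0.00159). In GIMEN D30 it was at -0.33 (adjusted p 0.167), and at -0.60 (adjusted p 0.0129) without GIMEN D30 replicate 2. IFITM2 was at 32.8, 24.7, 15.2 and 9.43 CPM in untreated SK-N-AS, 25.3, 26.2, 21.6 and 18.8 in S2D4 and 7.07, 6.34, 5.76 and 4.7 in S2D30, below each untreated library at 30 days (-1.76, SE 0.3, adjusted p 6.76e-05). IFITM1 was at 1.72, 1.52, 0.583 and 0.781 CPM in untreated SK-N-AS, 1.9, 1.52, 2 and 1.51 in S2D4 and 0.689, 0.998, 0.841 and 0.599 in S2D30, and had no count in untreated GIMEN. It was not called in S2D4 or S2D30 (0.58 and -0.55), but was without untreated SK-N-AS replicate 1 in S2D4 (0.85, adjusted p 0.0353) and, in S2D30, without untreated SK-N-AS replicate 3 (-0.76, adjusted p 0.039) or with the same term (-0.81, adjusted p 0.0237).

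Of the GTPases, MX2, a dynamin-like restriction factor, was at 2.72, 3.72, 1.99 and 3 CPM in untreated SK-N-AS cells and 4.2, 4.4, 3.54 and 4.53 in S1D4. Levels were 6.15, 5.49, 5.92 and 7.56 in S2D4 and 6.98, 5.94, 6.82 and 7.74 in S2D30. In GIMEN, MX2 was at 2.03, 1.97 and 1.44 CPM untreated and 3.19, 4.69 and 3.73 CPM in D30. It lay above the untreated libraries in both stage 2 groups (1.13, SE 0.19, adjusted p 5.84e-05 in S2D4 and 1.27, SE 0.19, adjusted p 1.19e-05 in S2D30) and in GIMEN D30 (1.08, SE 0.25, adjusted p 0.00226). Its S1D4 call (0.54, adjusted p 0.03) was lost without untreated SK-N-AS replicates 1 or 3 or S1D4 replicates 1, 2 or 4 (0.41 to 0.54, adjusted p 0.0541 to 0.0931). MX1, its paralogue, was not called in any of these 4 comparisons, at 2.69 to 6.52 CPM in SK-N-AS. Its S2D30 value (-0.44, adjusted p 0.0569) was called without untreated SK-N-AS replicate 4 (-0.50, adjusted p 0.0393) and with the term for replicates 1 and 2 against 3 and 4 (-0.54, adjusted p 0.0309). GBP2, a guanylate-binding protein, was at 10.8, 6.67, 8.36 and 6.87 CPM in untreated SK-N-AS cells and 32.3, 29.5, 35.9 and 33.4 in S1D4. Levels were 4.76, 6.2, 5.08 and 3.59 in S2D4 and 3.66, 3.19, 4.07 and 3.12 in S2D30. The S1D4 libraries stood above all others (4.02-fold, log2 change of 2.01, SE 0.16, adjusted p 1.89e-07) and those of stage 2 below the untreated ones (-0.75, SE 0.17, adjusted p 0.000908 in S2D4 and -1.20, SE 0.17, adjusted p 8.19e-06 in S2D30). In GIMEN, GBP2 rose from 2.08, 1.57 and 1.38 to 5.62, 4.12 and 5.21 CPM (1.56, SE 0.24, adjusted p 0.000119). GBP1 went down in both lines, and more in GIMEN. It was at 9.24, 6.63, 7.54 and 6.81 CPM in untreated SK-N-AS and 4.7, 5.64, 5.93 and 5.26 in S2D30 (-0.47, adjusted p 0.0115), and at 2.45, 2.17 and 2.42 CPM in untreated GIMEN and 0.414, 0.444 and 0.771 in GIMEN D30 (-2.11, SE 0.34, adjusted p 0.000152). The S2D4 call of GBP1 (-0.37, adjusted p 0.0456) was lost without untreated SK-N-AS replicates 1 or 3 or S2D4 replicates 1, 2, 3 or 4 (-0.40 to -0.25, adjusted p 0.0537 to 0.199) and with that term (-0.30, adjusted p 0.119), and its S2D30 call without untreated SK-N-AS replicate 1 (-0.36, adjusted p 0.0642).

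ISG15 is a ubiquitin-like protein that HERC5 attaches to other proteins and USP18 removes, and USP18 also restrains signalling at IFNAR2. USP18 was at 23.1, 19.9, 32.6 and 25.9 CPM in untreated SK-N-AS cells and 4.56, 5.05, 5.09 and 4.66 in S1D4. Levels were 7.68, 8, 7.27 and 1.22 in S2D4 and 3.45, 4.89, 4.25 and 3.25 in S2D30. Each treated library was below each untreated one, and S2D4 replicate 4 was the lowest (-2.39, SE 0.37, adjusted p 9.17e-05 in S1D4, -2.09, SE 0.37, adjusted p 1e-04 in S2D4 and -2.67, SE 0.38, adjusted p 7.79e-06 in S2D30). In GIMEN it had 39 counts over the untreated libraries and 5 over those of D30, a ratio of 6.67 (95% exact interval 2.63 to 21.7, counting error only) that was called lower (adjusted p 0.00128). HERC5 was at 22.8, 19.8, 22.1 and 20.6 CPM in untreated SK-N-AS cells and 20.6, 19, 19.2 and 16.3 in S1D4. Levels were 25.4, 27, 25.8 and 24.8 in S2D4 and 39.2, 37.3, 38.8 and 39 in S2D30. The S2D30 libraries were above all others (0.87, SE 0.08, adjusted p 5.83e-08). In GIMEN, HERC5 rose from 0.625, 0.354 and 0.46 to 1.89, 1.33 and 1.22 CPM (1.61, SE 0.37, adjusted p 0.00222), a level still below that of untreated SK-N-AS. ISG15 itself fell in S1D4 (-0.96, SE 0.26, adjusted p 0.0076), at 18.3, 16.4, 17.2 and 10.8 CPM untreated and 8.68, 8.44, 7.53 and 7.37 in S1D4. It was not called in S2D30 (-0.21, adjusted p 0.482) or GIMEN D30 (0.21, adjusted p 0.444). In S2D4 it was at -0.49 (adjusted p 0.109), and at -0.70 (adjusted p 0.0309) without S2D4 replicate 2. HERC6, a relative of HERC5, was at 5.15, 4.2, 3.6 and 3.18 CPM untreated, 5.64, 5.28, 4.2 and 2.82 in S2D4 and 1.94, 2.2, 2.13 and 1.54 in S2D30 (-1.03, SE 0.23, adjusted p 0.000685), low only at 30 days. Of the USP18 sequence, 18.3% of 75-base words are shared with the near-identical USP41.

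PARP9 and PARP14 belong to the ADP-ribosyltransferase family. PARP9 was at 65, 59, 77.1 and 83.5 CPM in untreated SK-N-AS cells and 58.3, 52.7, 60.5 and 58.3 in S1D4. Levels were 23.6, 25.6, 25.4 and 25.8 in S2D4 and 16.3, 18.1, 15 and 15.1 in S2D30. The stage 2 libraries were far below the others (-1.51, SE 0.11, adjusted p 3.35e-09 in S2D4 and -2.13, SE 0.11, adjusted p 3.44e-11 in S2D30, 4.37-fold lower). PARP14, by comparison, was at 48.5 to 77.5 CPM in SK-N-AS and was called in none of the treated groups against untreated cells, but rose in GIMEN D30 from 28.5, 28.2 and 27.8 to 56.3, 62.1 and 64.1 CPM (1.11, SE 0.07, adjusted p 1.2e-07). Single libraries decided this for PARP14 in SK-N-AS, as its S1D4 value (0.18, adjusted p 0.215) was called higher without untreated replicate 4 (0.31, adjusted p 0.0149). Its S2D4 value (-0.23, adjusted p 0.0759) was called lower without untreated replicate 3 (-0.29, adjusted p 0.0396) or S2D4 replicate 1 (-0.30, adjusted p 0.0338). In GIMEN, PARP9 was at 15.5, 13.2 and 14.6 CPM untreated and 10.7, 12.4 and 11.6 CPM in D30 (-0.32, adjusted p 0.0251). The S1D4 call of PARP9 (-0.31, adjusted p 0.0243) was lost without untreated SK-N-AS replicates 3 or 4 or S1D4 replicate 2 (-0.27 to -0.20, adjusted p 0.0719 to 0.0964). Its GIMEN call was lost without GIMEN D30 replicate 1 or untreated GIMEN replicates 1 or 3 (-0.32 to -0.26, adjusted p 0.0659 to 0.1) and with upper-quartile scaling (adjusted p 0.0532).

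Among the other effectors, ISG20, an RNA exonuclease, was the member with the largest rise in S2D4, S2D30 and GIMEN D30. It was at 3.22, 2.6, 1.85 and 1.11 CPM in untreated SK-N-AS cells and 6.16, 6.63, 3.54 and 4.17 in S1D4. Levels were 12.4, 15.9, 16.2 and 10.1 in S2D4 and 29.4, 17.6, 23.4 and 33.5 in S2D30. In GIMEN, ISG20 was at 1.41, 1.42 and 2.7 CPM untreated and 16, 15.7 and 13.8 CPM in D30. Each treated group lay above its untreated libraries (1.23, SE 0.3, adjusted p 0.00387 in S1D4, 2.63, SE 0.3, adjusted p 1.09e-06 in S2D4, 3.58, SE 0.31, adjusted p 2.05e-08 in S2D30 and 3.05, SE 0.22, adjusted p 2.05e-07 in GIMEN D30), 11.9-fold higher in S2D30 and 8.28-fold in GIMEN D30. PLSCR1, a phospholipid scramblase, was at 19.2, 16.8, 17.9 and 19.4 CPM in untreated SK-N-AS cells and 6.04, 4.96, 5.64 and 5.5 in S1D4. Levels were 3.84, 4.41, 4.15 and 5.35 in S2D4 and 3.88, 3.34, 4.03 and 2.86 in S2D30. Each treated group lay below the untreated libraries (-1.72, SE 0.14, adjusted p 1.44e-07 in S1D4, -2.04, SE 0.14, adjusted p 2.41e-09 in S2D4 and -2.36, SE 0.14, adjusted p 2.45e-10 in S2D30). In GIMEN, PLSCR1 went from 9.63, 12.5 and 10.9 to 8.34, 7.74 and 8.48 CPM (-0.43, adjusted p 0.0122), a call that was lost without untreated GIMEN replicate 2 (-0.34, adjusted p 0.0626). BST2, or tetherin, which holds virions at the cell surface, was at 44.9, 38.4, 29.5 and 22.7 CPM in untreated SK-N-AS cells and 37.9, 32, 32.5 and 32.5 in S1D4. Levels were 19.1, 21.5, 22.6 and 11.6 in S2D4 and 24.7, 26.3, 25.7 and 23.8 in S2D30. It was lower in S2D4 (-0.86, SE 0.19, adjusted p 0.000993) and was not called in S2D30 (-0.41, adjusted p 0.0648, and -0.55, adjusted p 0.0124, without untreated SK-N-AS replicate 4). In GIMEN, BST2 rose from 0.677, 0.657 and 0.115 to 2.01, 2.79 and 3.73 CPM (2.51, SE 0.46, adjusted p 0.000461), 5.68-fold. Its level in untreated GIMEN replicate 3 was below 3 counts, which are 0.173 CPM in that library, so this fold is imprecise.

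SAMD9L, a relative of SAMD9 that restrains cell growth, fell in S2D30 from 5.83, 7.62, 5.15 and 6.9 to 3.27, 3.64, 3.19 and 3.89 CPM (-0.86, SE 0.17, adjusted p 0.000296) and in GIMEN D30 from 23.8, 22.2 and 23.8 to 9.46, 10 and 10.5 CPM (-1.22, SE 0.1, adjusted p 5.26e-07), without overlap in either. SAMD9 fell in GIMEN D30 by 0.89 on the log2 scale (adjusted p 5.76e-05). Its SK-N-AS calls were lost without untreated SK-N-AS replicates 3 or 4 or S2D4 replicates 2, 3 or 4 (-0.52 to -0.25, adjusted p 0.0549 to 0.227) in S2D4, where it was -0.50 (adjusted p 0.0381), and without untreated SK-N-AS replicate 4 (-0.38, adjusted p 0.0683) in S2D30, where it was -0.62 (adjusted p 0.0105). Both were also lost with the term for replicates 1 and 2 against 3 and 4, at -0.15 (adjusted p 0.358) in S2D4 and -0.28 (adjusted p 0.0888) in S2D30. RSAD2, or viperin, an enzyme that makes a chain-terminating nucleotide, was at 3.27, 3.16, 2.97 and 3.72 CPM in untreated SK-N-AS cells and 2.6, 3.62, 2.61 and 3.2 in S1D4. Levels were 2.22, 2.23, 2.28 and 0.513 in S2D4 and 1.46, 0.948, 1.46 and 1.45 in S2D30. It was lower in S2D30 (-1.28, SE 0.34, adjusted p 0.0027) and in S2D4 (-0.88, adjusted p 0.0275), where replicate 4 was far below the others. The S2D4 change was -0.55 (adjusted p 0.0224) without S2D4 replicate 4, and its call was lost without untreated SK-N-AS replicate 4 (-0.79, adjusted p 0.0641). XAF1, a partner of the apoptosis inhibitor XIAP, was not called in SK-N-AS and rose in GIMEN D30 from 7.13, 6.98 and 7.08 to 15.1, 14.8 and 13 CPM (1.01, SE 0.12, adjusted p 1.14e-05). Of its sequence, 38.3% lies opposite another gene. TRIM22, a ubiquitin ligase, was at 0.132, 0.217, 0.292 and 0.15 CPM in untreated SK-N-AS and 0.431, 0.748, 0.443 and 0.513 in S2D30 (1.48, SE 0.5, adjusted p 0.0126), and at 6.56, 7.69 and 7.54 CPM in untreated GIMEN and 8.16, 6.28 and 9.06 in GIMEN D30, where the groups overlapped.

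The IFI44 and IFI44L genes, whose products are cytoplasmic proteins related to each other, were lower in each treated group of both lines. IFI44L was at 4.75, 4.94, 5.93 and 5.64 CPM in untreated SK-N-AS cells and 0.68, 0.695, 0.631 and 0.799 in S1D4. Levels were 1.16, 0.816, 0.466 and 0.128 in S2D4 and 0.517, 0.499, 0.443 and 0.556 in S2D30. In GIMEN, IFI44L was at 7.44, 8.5 and 8.28 CPM untreated and 3.9, 3.81 and 2.89 CPM in D30. It was 7.53-fold lower in S1D4 (-2.91, SE 0.38, adjusted p 1.73e-05), 8.54-fold in S2D4 (-3.09, SE 0.39, adjusted p 2.89e-06) and 10.4-fold in S2D30 (-3.37, SE 0.39, adjusted p 8.67e-07), and 2.28-fold in GIMEN D30 (-1.19, SE 0.17, adjusted p 5.91e-05). IFI44 was at 29.2, 29, 33.9 and 36.4 CPM in untreated SK-N-AS cells and 11, 9.64, 11.1 and 11.8 in S1D4. Levels were 10.6, 9.79, 9.09 and 8.78 in S2D4 and 8.62, 10.2, 9.34 and 6.37 in S2D30. In GIMEN, IFI44 was at 14.4, 20.4 and 17.3 CPM untreated and 4.67, 4.25 and 5.01 CPM in D30. Its 30-day change was -1.88 in S2D30 (SE 0.14, adjusted p 3.42e-09) and -1.90 in GIMEN D30 (SE 0.15, adjusted p 5.42e-07), and no treated library of either gene reached an untreated one of its line.

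IFI6, a small membrane protein that opposes apoptosis, rose in stage 2 of SK-N-AS. It was at 19.2, 14.7, 16.5 and 15.3 CPM in untreated SK-N-AS cells and 14.5, 14.2, 15.2 and 15.1 in S1D4. Levels were 20.8, 25.6, 26.1 and 18 in S2D4 and 38.5, 41.3, 44.2 and 38.4 in S2D30. Each S2D30 library was above all others (1.32, SE 0.11, adjusted p 2.36e-08). In GIMEN, IFI6 was at 3.02, 3.69 and 3.22 CPM untreated and 2.54, 3.62 and 3.34 CPM in D30 (-0.07, adjusted p 0.787). IFI35, a protein of the leucine zipper family, was at 18.1, 15.7, 12.4 and 8.47 CPM in untreated SK-N-AS, 9.48, 10.9, 10.4 and 14.1 in S2D4 and 4.74, 4.84, 6.42 and 3.76 in S2D30 (-1.45, SE 0.22, adjusted p 1.6e-05), and fell in GIMEN D30 from 16, 17.6 and 16.3 to 10.6, 10.5 and 9.32 CPM (-0.72, SE 0.1, adjusted p 7.16e-05). Its S1D4 call (-0.59, adjusted p 0.0338) was lost without untreated SK-N-AS replicates 1 or 2 or S1D4 replicates 1, 3 or 4 (-0.62 to -0.43, adjusted p 0.0545 to 0.141). Its S2D4 value (-0.29, adjusted p 0.247) was called without untreated SK-N-AS replicate 4 (-0.44, adjusted p 0.0465) and with that same term for replicates 1 and 2 (-0.48, adjusted p 0.0406). IFI27 was low throughout, at 0.214 to 1.37 CPM in SK-N-AS. Its calls in S2D4 (-1.34, adjusted p 0.0154) and S2D30 (-1.04, adjusted p 0.0437) were lost without untreated SK-N-AS replicate 1 (-1.01, adjusted p 0.0781) and without untreated SK-N-AS replicates 1 or 2 or S2D30 replicates 2, 3 or 4 (-1.13 to -0.71, adjusted p 0.0596 to 0.189), respectively.

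**Figure D3:**
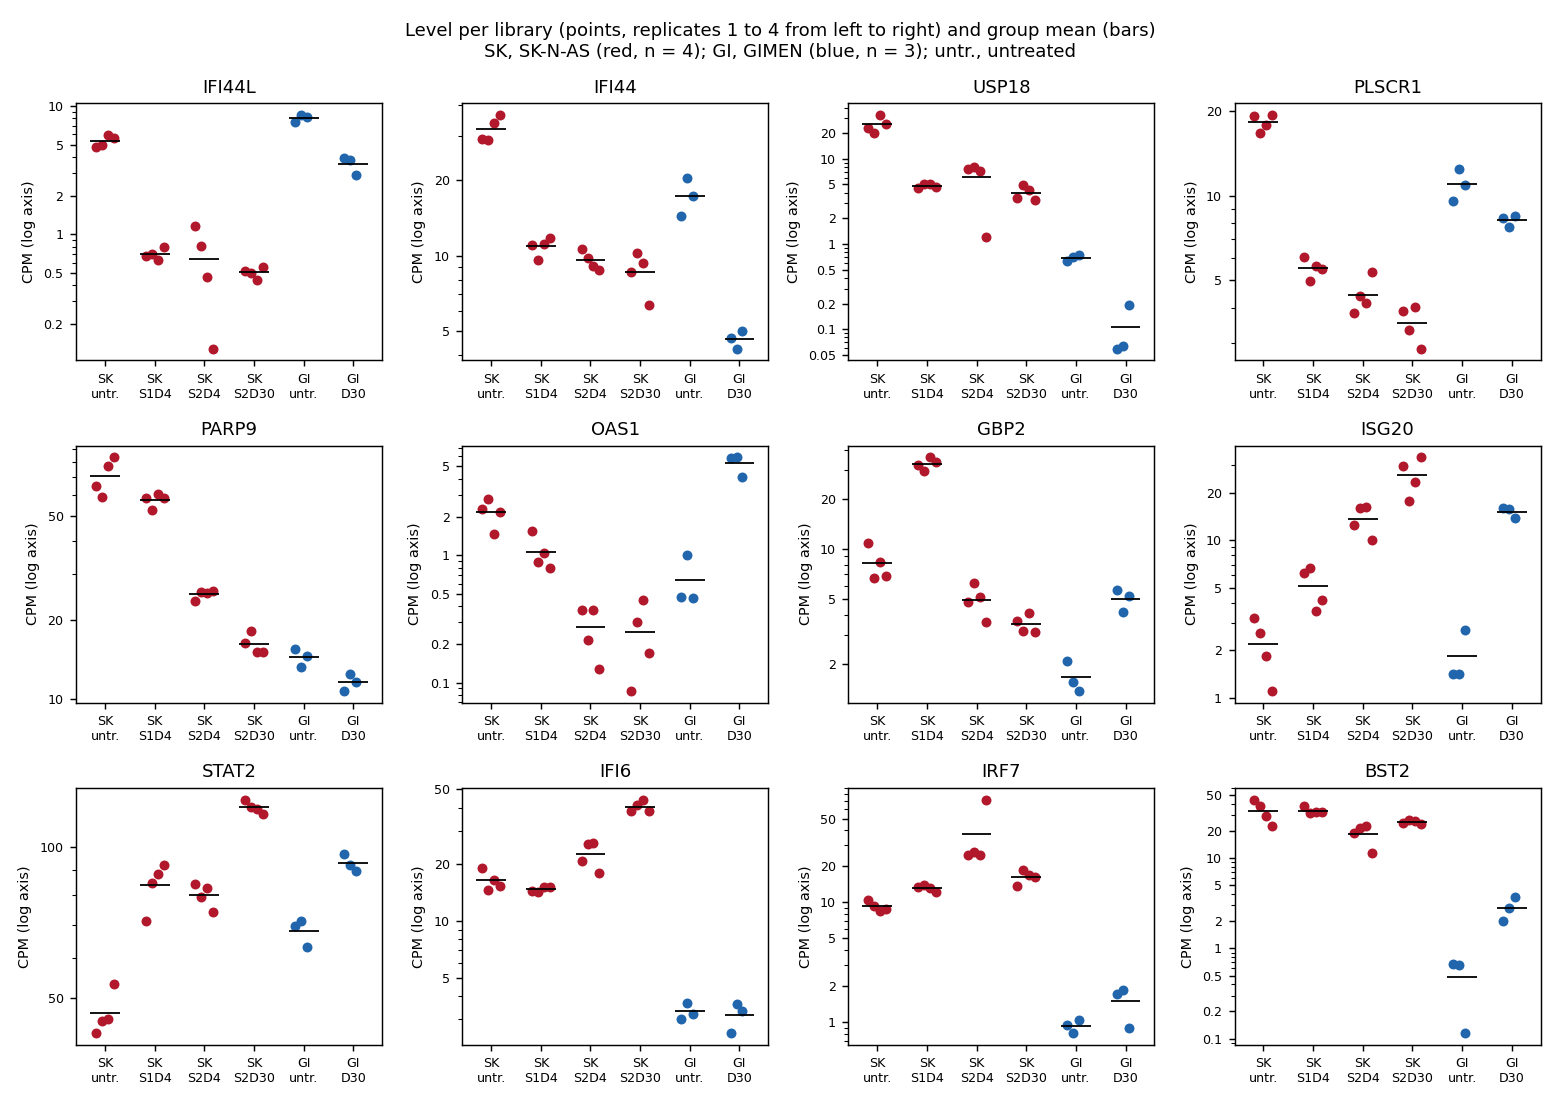
Level of 12 members in CPM (vertical log axis, own scale for each gene) in each library of the 6 groups, SK-N-AS in red (n = 4) and GIMEN in blue (n = 3), with bars at the group means. IFI44L, IFI44 and PLSCR1 lie lower in each treated group of both lines, ISG20 lies higher in each, GBP2 is highest in S1D4, and OAS1 falls in SK-N-AS and rises in GIMEN. In S2D4, replicate 4 lies apart at IRF7 (72.5 CPM) and USP18 (1.22 CPM).

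The treated SK-N-AS groups were also compared with each other. Between S1D4 and S2D4, with bufalin added, serum withdrawn and the medium changed, 8 members were higher and 9 lower (40.5% called), against 28.3% and 26.8% of all genes (55.1% called). The largest falls were those of GBP2 (6.75-fold, -2.76, SE 0.17, adjusted p 2.17e-09), OAS1 (-2.0, mean below 1 CPM in S2D4), IFIT2 (-1.43) and PARP9 (-1.20, SE 0.1, adjusted p 9.85e-08), and IRF1 and BST2 fell by 0.96 and 0.86. The largest rises were those of IRF7 (1.49, adjusted p 0.00023, and 0.93, adjusted p 1.09e-06, without S2D4 replicate 4) and ISG20 (1.40, SE 0.28, adjusted p 0.000524), followed by IFITM3 (0.70), DDX60 (0.69) and IFI6 (0.61). Without S2D4 replicate 4 the fall of IFIT2 was larger (-2.27, adjusted p 2.21e-06) and IRF9 was called lower (-0.64, adjusted p 0.000385). Calls were gained without it for ISG15 (0.47 to 0.74, adjusted p 0.000875), USP18 (0.29 to 0.65, adjusted p 0.00325) and PLSCR1 (-0.32 to -0.43, adjusted p 0.0101). The calls of IFI16 (0.40, adjusted p 0.0135) and MX2 (0.59) were lost with the term for replicates 1 and 2 against 3 and 4 (0.23, adjusted p 0.0898, and 0.48, adjusted p 0.0517), and that term gained calls for IFIT3 (-0.79, adjusted p 0.023) and XAF1 (-0.60, adjusted p 0.0222). The call of DDX60 (adjusted p 0.00963) was lost in a model of the compared groups alone (0.69, adjusted p 0.0521).

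From day 4 to day 30 of stage 2, 6 members were higher and 10 lower (38.1% called), against 24.4% and 26.9% of all genes (51.3% called). IFIH1 rose by 1.10 (adjusted p 0.000114), IRF1 by 1.10 (adjusted p 0.00345), ISG20 by 0.95, IFI6 by 0.87, HERC5 by 0.60 and STAT2 by 0.60. The IFITM genes all fell, IFITM2 by 1.93 (adjusted p 6.3e-05), IFITM1 by 1.13 (adjusted p 0.00791) and IFITM3 by 0.82 (adjusted p 0.000891), as did HERC6, IFI35 and IRF7, each by 1.17. Because the IFITM genes share part of their sequence, their counts may not be independent. IRF7 fell by 0.62 (adjusted p 9.84e-05) without S2D4 replicate 4. GBP2 was lower by 0.45 (adjusted p 0.0388), which was lost without S2D30 replicates 1, 2 or 4 or S2D4 replicates 1, 2 or 3 (-0.47 to -0.33, adjusted p 0.0574 to 0.135) and with DESeq2's test (adjusted p 0.0525). IFI44, IFI44L, IFIT1 and OAS1, which were already lower at day 4 of stage 2, were not called between day 4 and day 30 (adjusted p 0.458, 0.612, 0.0672 and 0.909). Without S2D4 replicate 4, IRF9, IFIT2, RSAD2 and USP18 were also called between day 4 and day 30, at 0.60 (adjusted p 0.000745), 0.91 (adjusted p 0.0119), -0.73 (adjusted p 0.00747) and -0.93 (adjusted p 0.000204), and BST2 was without S2D4 replicate 3 (0.56, adjusted p 0.0371).

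The 30-day change was compared between the lines, which also differ in dose, serum, medium and the preceding PP121 stage, so that line and protocol cannot be told apart. It was called different for 22 of 42 members tested, 6 more positive in SK-N-AS and 16 more negative, against 24.5% and 25.2% of 16246 genes. The members' share was 52.4%, against 49.7% of all genes, and their median difference was -0.53, against -0.02. OAS1 differed most among members with more than 3 counts in a library of each of the 4 groups (difference of -6.13, SE 0.56, adjusted p 1.43e-07). It fell in SK-N-AS and rose in GIMEN. Its means of 0.25 CPM in S2D30 and 0.647 CPM in untreated GIMEN were near the limit of detection, so the size of its difference is imprecise. GBP2 (-2.78, SE 0.3, adjusted p 1.11e-06) and IFIT2 (-2.65, SE 0.36, adjusted p 1.1e-05) had the same opposite directions, and DDX60 the reverse (2.24, SE 0.17, adjusted p 1.24e-08). BST2 (-2.93, SE 0.47, adjusted p 7.06e-05) and PARP14 (-1.15, adjusted p 8.36e-06) rose in GIMEN and were not called in SK-N-AS. IFI6 (1.37, SE 0.2, adjusted p 2.12e-05) rose in SK-N-AS and was not called in GIMEN, and the same held for IRF1 (1.03, adjusted p 0.00149) and TRIM22 (1.38, adjusted p 0.00862). GBP1 fell more in GIMEN (1.62, SE 0.32, adjusted p 0.000453), and IFI44L, PLSCR1 and PARP9 fell more in SK-N-AS (differences of -2.19, -1.94 and -1.82, adjusted p 3.64e-06, 3.22e-07 and 3.56e-07).

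After 30 days, STAT2, MX2, HERC5 and ISG20 were called higher in both lines. OAS3, IFIT1, GBP1, USP18, PARP9, SAMD9, SAMD9L, PLSCR1, IFI35, IFI44 and IFI44L were called lower in both. For ISG20 and IFI44 the difference between the lines was not called (0.51, SE 0.44, adjusted p 0.362, and 0.0, SE 0.23, adjusted p 1), which does not show that the changes were equal. The calls of a difference for HERC5 (-0.77, adjusted p 0.0287), IFI35 (-0.75, adjusted p 0.0459) and IFIT3 (-1.08, adjusted p 0.0406) were lost when single libraries were left out. For HERC5 this was without GIMEN D30 replicate 1 or untreated GIMEN replicates 2 or 3 (-0.73 to -0.54, adjusted p 0.0748 to 0.202), for IFI35 without GIMEN D30 replicates 1, 2 or 3, untreated GIMEN replicates 1, 2 or 3, untreated SK-N-AS replicates 1 or 2 or S2D30 replicates 1, 2 or 4 (-0.79 to -0.60, adjusted p 0.0595 to 0.0922), and for IFIT3 without GIMEN D30 replicates 1 or 3, untreated GIMEN replicates 1, 2 or 3, untreated SK-N-AS replicates 1 or 2 or S2D30 replicates 3 or 4 (-1.15 to -0.88, adjusted p 0.0543 to 0.105). RSAD2 was also called different (adjusted p 0.00353), with no count in untreated GIMEN and at most 7 counts in GIMEN D30, a call lost without GIMEN D30 replicate 1 (adjusted p 0.121). The call for IRF9 (-0.59, adjusted p 0.00529) was lost in a model of all 22 libraries (adjusted p 0.179). Calls of a difference were gained without a single library for IFI16, IFI27, IFITM1, IFITM2, ISG15, MX1, OAS2 and SAMD9. Of these, IFI27 and IFITM1 were not tested in GIMEN alone. With each library left out in turn, 6 to 7 members were more positive in SK-N-AS and 13 to 19 more negative.

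**Figure D4:**
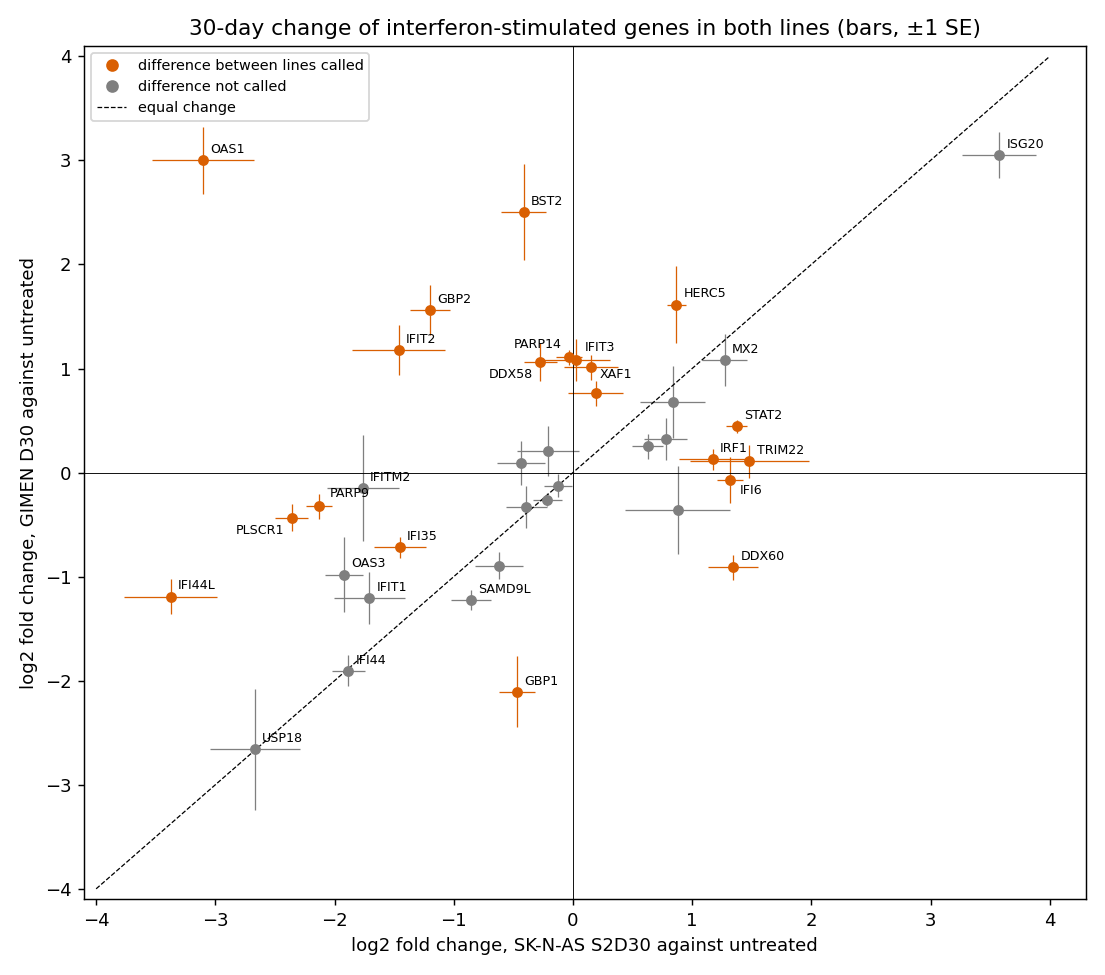
Log2 fold change after 30 days in SK-N-AS (S2D30 against untreated, horizontal axis) and in GIMEN (D30 against untreated, vertical axis) for the 38 members tested in both, with bars of 1 SE and a dashed line of equal change. Orange points are members whose difference between the lines was called. ISG20, USP18 and IFI44 lie near the line, OAS1, GBP2 and IFIT2 at the upper left, and DDX60 at the lower right. USP18 had 1 to 3 counts in the GIMEN D30 libraries, so its vertical position is imprecise. OAS1 was below 3 counts in S2D30 replicate 1, so its horizontal position is imprecise.

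Before treatment, most members differed between the lines. Untreated SK-N-AS grew in DMEM and untreated GIMEN in RPMI, so line and medium cannot be told apart. Of 42 tested, 28 were higher and 9 lower in SK-N-AS (88.1% called), against 38.6% and 35.3% of 16246 genes (73.9% called), with a median difference of 0.76 against 0.05. The libraries of BST2 were at least 22.7 CPM in untreated SK-N-AS and at most 0.677 CPM in untreated GIMEN (67.1-fold, 6.07, SE 0.34, adjusted p 5.33e-11). HERC5 (43.7-fold), OAS3 (39.3-fold) and USP18 (36.1-fold) were likewise higher in SK-N-AS without overlap (adjusted p 3.22e-14, 2.03e-12 and 6.76e-12), and so was IRF7 (9.91-fold, adjusted p 3.69e-10). IFITM1 and RSAD2, with no count in untreated GIMEN, were at least 7.17-fold and at least 20.5-fold higher in SK-N-AS, taking 3 counts per GIMEN library as the floor. In the other direction, TRIM22 was 38.3-fold lower in SK-N-AS (-5.26, SE 0.28, adjusted p 2.43e-11), and SAMD9L (-1.88), EIF2AK2 (-1.19), XAF1 (-1.18), DDX60 (-1.03), STAT2 (-0.55), IRF1 (-0.77), OAS2 (-1.73) and IFI44L (-0.61) were lower too.

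The calls between the untreated lines of DDX58, IFI16, IFI27, IFIT5, MX1 and MX2, each higher in SK-N-AS, were lost when single libraries were left out. For DDX58 (0.51) this was without untreated GIMEN replicate 3 (0.42, adjusted p 0.0859), for MX1 (0.55) without untreated GIMEN replicate 3 (0.44, adjusted p 0.0674), for MX2 (0.64) without untreated GIMEN replicate 3 or untreated SK-N-AS replicate 2 (0.49 to 0.50, adjusted p 0.0644 to 0.11), for IFI16 (0.35) without untreated GIMEN replicates 1, 2 or 3 or untreated SK-N-AS replicates 1 or 2 (0.20 to 0.36, adjusted p 0.0918 to 0.189) and for IFIT5 (0.28) without untreated GIMEN replicates 1 or 2 or untreated SK-N-AS replicates 1 or 3 (0.21 to 0.24, adjusted p 0.102 to 0.195). For IFI27 (1.61) the calls were lost without untreated GIMEN replicate 1 or 3 or untreated SK-N-AS replicate 1 (1.15 to 1.31, adjusted p 0.0611 to 0.0974), and the difference was 2.91 without untreated GIMEN replicate 2. In a model of all 22 libraries the calls of IFI44L and IRF9 were lost (adjusted p 0.0844 and 0.0817). Levels were also scaled by the length of all annotated exons of a gene, which can exceed that of the expressed transcript. By this measure the highest members in untreated SK-N-AS were IFITM3, IFI16 and BST2, at means of 102, 36.3 and 30.3 CPM per kilobase. In untreated GIMEN they were IFI16, EIF2AK2 and STAT2, at 28.1, 13.4 and 11.1 CPM per kilobase. IFI16 led in GIMEN D30 and came next to IFITM3 in each SK-N-AS group, and IFI6 was the third in S2D4 and S2D30, at 26.1 and 46.9 CPM per kilobase.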

How the data were processed

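Total RNA of 22 libraries was measured by paired-end RNA sequencing. The authors deposited raw read counts per gene, per the file headers. The aligner, the genome build and the strand used in counting are not given in the sources used here. Counts of the 43 members and of the pathway and marker lists were read by symbol. The members and lists were chosen with earlier results of these data known. edgeR 4.0.16 (R 4.3.3) was used with TMM scaling, its expression filter (minimum count 10, minimum total 15), the quasi-likelihood test and Benjamini-Hochberg adjustment over all genes tested, with 1 model for 16 SK-N-AS libraries, 1 for 6 GIMEN libraries and 1 for the untreated and 30-day libraries of both lines. Printed levels are CPM scaled over all 22 libraries. Values are in every library for the regulators and for up to 5 called members with the largest rise and 5 with the largest fall in each comparison (mean of at least 1 CPM), and further members are given by role. The test was checked on simulated counts in which 198 of 15443 genes changed for SK-N-AS and 197 of 13349 for GIMEN. Far more genes were called in the data, a setting that the simulation does not cover. Alternatives were DESeq2 1.42.0 (test and size factors), upper-quartile scaling, other filters, other sets of libraries, a replicate block, a term that sets replicates 1 and 2 of untreated and S1D4 cells apart from replicates 3 and 4, and leaving out each library. Words of 75 bases shared with other genes were counted on GENCODE release 29. Totals per library and the level of 3 counts give the depth, and intervals cover counting error only. Some listed genes that are no members are not reported here by name.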

Additional observations from a re-analysis of the deposited data

Results flagged for a closer look

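Of 149 sets of 4 libraries examined, each 1 member in 1 SK-N-AS group, 9 had a library far from the other 3 by Dixon's criterion. Chance alone would flag about 5% of independent sets. These sets share libraries, so 9 of 149 cannot be set against that share. In 6 of the 9 the library apart was S2D4 replicate 4. Its IRF1 level was 18.2 CPM (others 8.48 to 9.71), IRF7 72.5 CPM (24.9 to 26.5) and IFIT3 4.52 CPM (2.75 to 2.91), all above the others. It was below the others for DDX60, at 8.65 CPM (20.2 to 21.8), USP18, at 1.22 CPM (7.27 to 8), and RSAD2, at 0.513 CPM (2.22 to 2.28). In S1D4, replicate 1 was above the others for IFI16, at 248 CPM (213 to 218), and BST2, at 37.9 CPM (32 to 32.5). In S2D30, replicate 2 was below the others for RSAD2, at 0.948 CPM (1.45 to 1.46).

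The 30-day change differed between the lines, by edgeR's test of the difference, for the members listed here with their log2 difference (SK-N-AS minus GIMEN). It was more positive in SK-N-AS for STAT2 (0.91), IRF1 (1.03), DDX60 (2.24), GBP1 (1.62), TRIM22 (1.38) and IFI6 (1.37). It was more negative in SK-N-AS for IRF9 (-0.59), DDX58 (-1.36), OAS1 (-6.13), IFIT2 (-2.65), IFIT3 (-1.08), GBP2 (-2.78), HERC5 (-0.77), HERC6 (-1.78), PARP9 (-1.82), PARP14 (-1.15), BST2 (-2.93), PLSCR1 (-1.94), XAF1 (-0.88), IFI35 (-0.75) and IFI44L (-2.19). RSAD2, which had no count in untreated GIMEN, is given in the report. HERC6 was too low in GIMEN to be tested there, at means of 0.334 CPM untreated and 0.561 CPM in D30. Its difference therefore rests mostly on the SK-N-AS libraries, and its size is imprecise. The lines also differ in dose, serum, medium and prior stage.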

How the results depend on the processing

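The counts of members called higher and lower stayed within 1.5 times their reported values under each alternative run, and of 5270 member values recomputed, 4905 kept their direction and their side of the threshold, 158 lost and 89 gained a call, 117 uncalled values moved or changed sign, and 1 reversed. The reversed value was IRF9 in S2D4, at -0.42 (adjusted p 0.00854) without S2D4 replicate 4, and from -0.42 to 0.21 when each library was left out. Leaving out each library in turn gave a median member change of -0.15 to -0.06 in S1D4, -0.44 to -0.23 in S2D30, 0.00 to 0.13 in GIMEN D30, -0.60 to -0.42 for the difference between the lines and 0.66 to 0.84 between the untreated lines. Upper-quartile scaling gave medians of 0.15 in GIMEN D30 and 0.91 between the untreated lines. The cause was not tested.

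Same-numbered libraries share a number in their labels, and no pairing is given there. Between untreated and S1D4 the correlation of their deviations was 0.271, 0.267, 0.044 and 0.291 for replicates 1 to 4. It was -0.101 to 0.022 between untreated and S2D4, and in no comparison was it over 0.1 for every number. Whether same-numbered untreated and S1D4 libraries were linked was not tested. With the replicate block, 5 members were higher and 10 lower in S1D4, 9 and 14 in S2D4, 11 and 18 in S2D30, and 13 and 12 in GIMEN D30. The calls lost under the replicate block were IFI35 in S1D4, EIF2AK2, GBP1 and SAMD9 in S2D4, IFI27 in S2D30 and OAS3 in GIMEN D30 (adjusted p 0.0539 to 0.0659). With 3 counts at 0.0792 to 0.193 CPM, depth limits OASL, the ligands and, in GIMEN, IFITM1, HERC6, RSAD2 and IFI27, which were not tested there. The term that sets replicates 1 and 2 of untreated and S1D4 cells apart from replicates 3 and 4 ended the member calls named with it in the report (EIF2AK2, GBP1, IFITM3 and SAMD9 in S2D4, SAMD9 in S2D30, and IFI16 and MX2 between S1D4 and S2D4). Beside the gained calls given there, it gained those of IFI16 in S1D4 (0.25, adjusted p 0.048), BST2 in S2D30 (-0.58, adjusted p 0.0115) and BST2 between day 4 and day 30 of stage 2 (0.45, adjusted p 0.0375).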
